A study of Mus musculus with 18 samples.

Results

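The comparison described here sets interferon-gamma (IFNγ) directly against interferon-alpha (IFNα) in cells whose protein synthesis was blocked with cycloheximide (CHX). It rests on 6 of the 18 arrays of the study, chosen by their labels alone: 3 arrays of IFNγ + CHX and 3 of IFNα + CHX. NIH-3T3 cells, an established mouse fibroblast line, were pretreated for 15 min with CHX and then given IFNγ at 100 U/ml or IFNα at 100 U/ml for 60 min in its continued presence. In both groups the uridine analogue 4-thiouridine (4sU, 500 µM) was in the medium between 30 and 60 min of treatment, and the labelled, newly transcribed RNA of that window was purified and hybridised to Affymetrix mouse arrays. For reference, 3 Mock + CHX arrays had CHX and label but no interferon, and the 9 arrays without CHX (IFNγ, IFNα and Mock, 3 each) had DMSO in its place. Each group held 3 biological replicates. A single dose, time window and fibroblast line bound what the comparison covers, and because each array reads the RNA of a whole culture, fewer responding cells and less RNA per cell cannot be told apart.

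IFNα is a type I interferon, which most cells make when they detect a virus, whereas IFNγ, the type II interferon, comes mainly from T cells and natural killer cells. The type I receptor activates ISGF3, a complex of a pair of STAT proteins with IRF9 that binds the interferon-stimulated response element (ISRE), and the type II receptor mainly activates STAT dimers that bind the gamma-activated site (GAS). Some of the first proteins made after either interferon act back on transcription, among them the transcription factor IRF1 and the inhibitors SOCS1 and USP18. CHX stalls ribosomes and so bars effects that need such new proteins, which leaves the response that proteins already present can give. The paper reports that CHX without interferon also raised and lowered genes, which it ascribes to decay of short-lived regulators. In the contrast under CHX, an effect of CHX combined with an interferon cannot be told apart from that of the interferon alone. The design text of the study asks how much of the response to the interferons needs new protein, and the direct contrast of the interferons under CHX shows which genes differ between them when none is made.

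All 18 arrays were alike in scale, with median intensities of 9.6 to 10.8 and upper quartiles of 114.6 to 141. The lowest upper quartiles were those of IFNγ + CHX replicate 1 (114.6) and Mock + CHX replicate 1 (115.8). All 10 fibroblast markers measured were strongly transcribed, with mean log2 intensities of 9.51 to 14.52 in the 3 CHX groups. The 5 measured epithelial markers lay near the bottom of the scale, with means of 2.20 to 4.02, and the only measured leukocyte marker, *Lyz2*, was at 10.1, 7 and 7.3 with IFNγ + CHX and 7.3, 7 and 7 with IFNα + CHX. No endothelial marker reached the intensity filter.

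Of 27773 probe sets tested, 482 (1.74%) were higher with IFNγ + CHX than with IFNα + CHX and 331 (1.19%) were lower, at a Benjamini-Hochberg adjusted p under 0.01 in limma and a difference of at least 2-fold. With each gene represented by its brightest probe set, 277 of 12121 genes (2.29%) were higher and 186 (1.53%) lower. Of 279 genes with several probe sets and at least 1 called, 74 had all of them called. No gene had probe sets called in both directions. These thresholds define "higher", "lower", "rose" and "fell" throughout, and differences are log2 values of IFNγ + CHX minus IFNα + CHX with their standard errors. The median difference of the higher genes was 1.67, which is 3.19-fold, and that of the lower genes −1.49, or 2.81-fold, against −0.01 over all genes. At least 4-fold apart were 93 higher and 51 lower genes, and 7 and 10 were at least 16-fold apart. In every called gene the 3 IFNγ + CHX values lay wholly above or wholly below the 3 IFNα + CHX values. This describes the same values that gave the calls and adds no separate support. Where gene lists are used to order the account, their counts are descriptions to be read against these percentages, since a gene was measured only if at least 1 of the 18 arrays lifted it over the intensity filter.

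The Mock + CHX arrays placed these genes relative to cells without interferon. In all 277 higher genes the Mock + CHX mean lay nearer to IFNα + CHX than to IFNγ + CHX, with median log2 levels of 8.90 with IFNγ + CHX, 6.85 with IFNα + CHX and 6.35 with Mock + CHX. The 186 lower genes split into 91 whose Mock + CHX mean lay nearer to IFNγ + CHX and 95 whose Mock + CHX mean lay nearer to IFNα + CHX. In the first set the median levels were 5.85 with IFNγ + CHX, 8.63 with IFNα + CHX and 4.96 with Mock + CHX. In the second they were 6.45, 8.02 and 7.66. The split itself places the IFNα + CHX mean above Mock + CHX in the first set. Likewise it places the IFNγ + CHX mean below Mock + CHX in the second, so neither position is a separate result. The other interferon also had a median above that of Mock + CHX in each set. This division goes by means alone, and the same 3 Mock + CHX arrays enter it for both interferons.

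**Figure D1:**
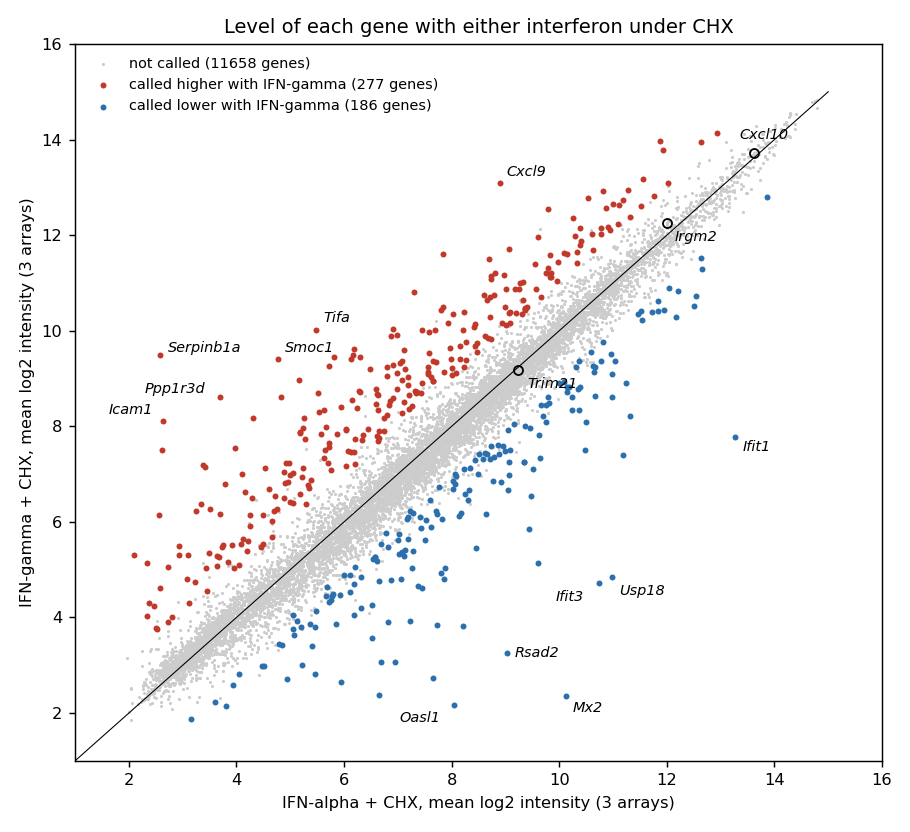
Each point is 1 of 12121 genes, with its mean log2 intensity over 3 IFNγ + CHX arrays on the vertical axis and over 3 IFNα + CHX arrays on the horizontal axis, the line marking equal levels. The 277 higher genes lie above the line and the 186 lower genes below it, with *Cxcl10*, *Irgm2* and *Trim21* (open circles) close to it.

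The calls depend on which arrays estimate the spread: with only the 6 arrays of the comparison in the fit, 104 probe sets were higher and 64 lower. Scaling every array to the same median shifted the median difference of all probe sets to 0.15 and gave 596 higher and 240 lower, so that 71.3% of calls were higher, against 59.3% with the values as deposited.

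The genes lower with IFNγ were led by the antiviral programme of type I interferon. *Mx2*, which encodes a dynamin-like GTPase that blocks viruses, had intensities of 5.2, 5 and 5.2 with IFNγ + CHX, 1213, 1155 and 984 with IFNα + CHX and 5.1, 5.1 and 5 with Mock + CHX. Its IFNγ + CHX values were those of uninduced cells, and the difference of −7.76 ± 0.08 (adjusted p = 1.66e-16) was the widest of all genes in either direction, 217-fold. *Mx1*, the other Mx GTPase, read 8.9, 8.1 and 8.1 in the IFNγ + CHX arrays, against 151, 111 and 109.6 in the IFNα + CHX arrays, a difference of −3.87 ± 0.12 (adjusted p = 3.81e-11). Both Mx genes were near the floor with IFNγ and clear of it with IFNα. Viperin, the radical enzyme encoded by *Rsad2*, gave 8.6, 11.1 and 9.1 in the IFNγ + CHX arrays, against 598, 505 and 473 in the IFNα + CHX arrays (−5.78 ± 0.14, adjusted p = 3.46e-12). Its neighbour *Cmpk2*, a nucleotide kinase gene, read 9.3, 7.7 and 8.1 in the IFNγ + CHX arrays, against 202, 81.2 and 67.2 in the IFNα + CHX arrays (−3.63 ± 0.36, adjusted p = 1.15e-05). All 3 probe sets of *Rsad2* were lower.

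The IFIT proteins bind viral RNA, and the OAS proteins make the messenger that switches on RNA decay in infected cells. Of 12 genes listed for both families, 9 were measured, and 8 of them were lower and 0 higher, with a median difference of −3.58. *Ifit3* had 39.4, 19.6 and 23.7 in the IFNγ + CHX arrays, against 2222, 2067 and 1075 in the IFNα + CHX arrays, a difference of −6.01 ± 0.27 (adjusted p = 2.79e-09). *Ifit1* was brighter, at 207, 279 and 183 in the IFNγ + CHX arrays, against 10108, 10397 and 9129 in the IFNα + CHX arrays, and differed by −5.49 ± 0.19 (adjusted p = 2.31e-10). Both were induced strongly by IFNα, 72-fold and 126-fold over Mock + CHX, while with IFNγ they stood at 1.11-fold and 2.8-fold. *Oasl1*, which encodes an OAS-like protein, read 4.3, 4.5 and 4.6 in the IFNγ + CHX arrays, against 148, 377 and 326 in the IFNα + CHX arrays (−5.88 ± 0.24, adjusted p = 1.09e-09). *Oas1a* had 14.1, 13.9 and 14.1 in the IFNγ + CHX arrays, against 319, 327 and 251 in the IFNα + CHX arrays (−4.40 ± 0.12, adjusted p = 1.43e-11). *Oas1b* and *Ifit1bl1* were lower as well, with differences of −3.01 ± 0.30 and −2.21 ± 0.22. The exception in size was *Ifit2*, at 631, 614 and 758 with IFNγ + CHX, 1887, 1832 and 1534 with IFNα + CHX and 1059, 925 and 944 with Mock + CHX, where the IFNγ + CHX values lay below both other groups and the difference was −1.39 ± 0.13, adjusted p = 4.85e-06. *Oas2* was the member not called, at 6.3, 6.2 and 6.2 in the IFNγ + CHX arrays, against 11.9, 7 and 17.9 in the IFNα + CHX arrays, although it was called without IFNα + CHX replicate 2 (−1.23). Members of both families are close relatives in sequence, so signal from one paralogue could reach the probes of another.

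The promoters of the 3 most strongly lowered genes with a RefSeq entry (*Mx2* and *Usp18* were not matched) are printed because *Ifit3*, *Oasl1* and *Rsad2* moved together and type I interferon acts through the ISRE. The windows run from 250 bases before to 50 bases after the transcription start (build GRCm38.p6), with *Ifit3* at chr19:34583279-34583578, plus strand, *Oasl1* at chr5:114922990-114923289, plus strand and *Rsad2* at chr12:26456403-26456702, minus strand. Capitals mark the ISRE letters used here, GAAA, any 2 bases and GAAA, which read TTTC, any 2 bases and TTTC on the other strand.
*Ifit3*: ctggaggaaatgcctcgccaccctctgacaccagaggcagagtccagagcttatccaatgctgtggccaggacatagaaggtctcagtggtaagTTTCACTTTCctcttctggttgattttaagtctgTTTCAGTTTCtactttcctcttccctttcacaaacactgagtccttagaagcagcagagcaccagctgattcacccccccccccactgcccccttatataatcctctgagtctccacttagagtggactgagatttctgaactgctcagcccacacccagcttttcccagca
*Oasl1*: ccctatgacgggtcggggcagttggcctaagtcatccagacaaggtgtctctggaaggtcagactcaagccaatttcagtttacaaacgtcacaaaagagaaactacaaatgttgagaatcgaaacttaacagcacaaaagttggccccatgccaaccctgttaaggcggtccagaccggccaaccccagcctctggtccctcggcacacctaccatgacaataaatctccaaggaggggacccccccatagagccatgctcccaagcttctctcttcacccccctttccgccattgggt
*Rsad2*: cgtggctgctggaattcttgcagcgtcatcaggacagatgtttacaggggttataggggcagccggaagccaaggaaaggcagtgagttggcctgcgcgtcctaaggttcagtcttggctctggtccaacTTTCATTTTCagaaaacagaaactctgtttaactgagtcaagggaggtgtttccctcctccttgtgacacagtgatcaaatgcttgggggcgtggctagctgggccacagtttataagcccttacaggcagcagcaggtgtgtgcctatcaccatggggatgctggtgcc
*Ifit3* had 2 such matches, at 156 to 147 and 122 to 113 bases before the start, *Rsad2* had 1, at 120 to 111 bases before it, and *Oasl1* had none with these letters in this window.

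Other effectors of the same programme were lower too, some of them at levels above Mock + CHX with both interferons. Of 15 measured genes in the list of further antiviral effectors, 9 were lower and 0 higher, with a median of −1.73. *Rtp4*, encoding a chaperone of G protein-coupled receptors that interferon induces, differed by −3.10, *Samd9l* by −1.82, *Isg20*, an RNA exonuclease, by −1.92, and *Zc3hav1*, which encodes the zinc-finger antiviral protein, by −1.38. *Ifitm3* and *Adar* did not pass the thresholds, at −0.32 and −0.96. *Usp18*, which encodes the protease that removes ISG15 from proteins and holds back the type I receptor, read 24, 40.2 and 24.9 with IFNγ + CHX, 2167, 1991 and 1901 with IFNα + CHX and 5.9, 6.4 and 6.4 with Mock + CHX. Its IFNγ + CHX values were above the uninduced level on every array, 4.63-fold by their means, yet the difference from IFNα was −6.13 ± 0.15 (adjusted p = 3.46e-12). *Oasl2* behaved likewise at 65.7, 53.6 and 55 with IFNγ + CHX, 765, 599 and 718 with IFNα + CHX and 5.7, 6.8 and 6.6 with Mock + CHX, a difference of −3.58 ± 0.13 (adjusted p = 3.94e-10). In both genes the response to IFNγ was a small part of that to IFNα. *Xaf1*, which encodes a partner of the apoptosis inhibitor XIAP, had 159, 223 and 139 in the IFNγ + CHX arrays, against 2398, 2314 and 2312 in the IFNα + CHX arrays (−3.78 ± 0.27, adjusted p = 5.29e-07), and the other 3 measured genes of ISG15 conjugation besides *Usp18* were not called.

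Cytosolic and endosomal RNA sensors were also on the side of IFNα. *Ifih1* (MDA5) read 6.3, 6.8 and 6.9 in the IFNγ + CHX arrays, against 247, 170.1 and 194 in the IFNα + CHX arrays, a difference of −4.92 ± 0.18 (adjusted p = 3.81e-10), with the IFNγ + CHX values at those of Mock + CHX (7.3, 6.1 and 6.2). *Ddx58* (RIG-I) was lower, with a difference of −2.97. *Dhx58* (LGP2) read 33.5, 29.4 and 22.5 in the IFNγ + CHX arrays, against 251, 252 and 194 in the IFNα + CHX arrays (−3.04 ± 0.26, adjusted p = 2.14e-06). *Tlr3*, the endosomal receptor for double-stranded RNA, had 14, 17.9 and 13.9 in the IFNγ + CHX arrays, against 171, 146 and 135 in the IFNα + CHX arrays (−3.31 ± 0.20, adjusted p = 1.03e-07). The exception was *Sting1*, the adaptor of DNA sensing, which was higher with IFNγ at 2567, 2074 and 1093 in the IFNγ + CHX arrays, against 271, 113 and 126 in the IFNα + CHX arrays (3.52 ± 0.51, adjusted p = 0.000394). The list of 12 measured sensors and adaptors thus had 4 lower and 1 higher, with a median of −0.61. *Cgas* differed by −0.99, just inside the 2-fold limit, and *Mavs* by 0.03.

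Of 5 measured genes in the list of interferon-induced PARPs and *Dtx3l*, 4 were lower and 0 higher, with a median of −1.41. *Parp11* was not called (−0.62, adjusted p = 0.0125), although a dimmer probe set of it was lower (−1.19, adjusted p = 0.00632). The PARP family genes *Parp9*, *Parp12* and *Parp14* and *Dtx3l*, which encodes a ubiquitin ligase that partners PARP9, differed between the interferons in degree. *Parp12* read 240.4, 257 and 330.4 with IFNγ + CHX, 1367, 1515 and 1440 with IFNα + CHX and 56.1, 86.6 and 81.8 with Mock + CHX, a difference of −2.40 ± 0.16 (adjusted p = 2.87e-07). *Parp14* had 237, 161 and 188 with IFNγ + CHX, 507, 481 and 491 with IFNα + CHX and 5.6, 7 and 6.9 with Mock + CHX (−1.35 ± 0.15, adjusted p = 2.64e-05). *Parp9* and *Dtx3l* differed by −1.41 ± 0.16 and −1.81 ± 0.27. All 4 were above Mock + CHX with IFNγ too, 3.71-fold for *Parp12* to 29.8-fold for *Parp14*. Of 14 measured TRIM genes, many of which encode ubiquitin ligases in antiviral defence, 6 were lower and 0 higher, with a median of −0.57. *Trim30d* read 30.9, 28.8 and 32 in the IFNγ + CHX arrays, against 275, 208 and 193 in the IFNα + CHX arrays (−2.87 ± 0.21, adjusted p = 5.34e-07). Its paralogue *Trim30a* had 441, 407 and 613 in the IFNγ + CHX arrays, against 2679.7, 2304 and 2274 in the IFNα + CHX arrays (−2.33 ± 0.25, adjusted p = 2.64e-05). *Trim56*, also a ubiquitin ligase gene, read 681, 484 and 502 in the IFNγ + CHX arrays, against 1977, 1853 and 2233 in the IFNα + CHX arrays (−1.88 ± 0.13, adjusted p = 3.41e-07). With the dimmest instead of the brightest probe set of each gene, 2 TRIM genes were lower.

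*Irf7*, the transcription factor that amplifies type I interferon production, was the only one called of the 6 interferon regulatory factors measured, at 6.2, 6 and 6.6 with IFNγ + CHX, 68.2, 108 and 31.3 with IFNα + CHX and 6.1, 5.9 and 6 with Mock + CHX. The IFNγ + CHX and Mock + CHX values were alike, and the difference was −3.29 ± 0.32 (adjusted p = 1.01e-05). Among genes of antigen presentation, *Tapbp*, which encodes tapasin of the peptide-loading complex, was lower at 724, 726 and 546 in the IFNγ + CHX arrays, against 2193, 2048 and 2089.8 in the IFNα + CHX arrays (−1.68 ± 0.13, adjusted p = 1.4e-06). *Tor3a*, which encodes a torsin-family ATPase, was among the 12 widest falls at 38.4, 37.2 and 31.2 in the IFNγ + CHX arrays, against 989, 814 and 581 in the IFNα + CHX arrays (−4.45 ± 0.16, adjusted p = 3.94e-10). *Tent5a*, encoding a poly(A) polymerase, was another at 11.2, 17 and 15.6 in the IFNγ + CHX arrays, against 249.9, 202 and 187 in the IFNα + CHX arrays (−3.88 ± 0.15, adjusted p = 4.2e-10). *Daxx*, encoding a histone chaperone, read 228, 191 and 81.9 in the IFNγ + CHX arrays, against 832, 666 and 504 in the IFNα + CHX arrays and differed by −2.10 ± 0.37 (adjusted p = 0.00221). Its call was lost without IFNα + CHX replicate 1 (−1.92, adjusted p = 0.0135) or replicate 2 (−2.08, adjusted p = 0.0108).

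Low readings near 5 lie at the lower quartile of the arrays (5.2 to 5.7), so the fold of a gene that is dim with one interferon depends on the level at which an absent transcript reads. With 16 added to every intensity before taking logarithms, the differences were −5.74 for *Mx2*, −4.40 for *Rsad2*, −3.77 for *Oasl1*, −3.26 for *Ifih1* and −1.83 for *Irf7*, all still lower.

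The genes higher with IFNγ were a more mixed group. *Serpinb1a*, which encodes an inhibitor of neutrophil proteases, had 879.8, 622 and 671 with IFNγ + CHX, 6.1, 6 and 5.9 with IFNα + CHX and 6.6, 6.1 and 6.1 with Mock + CHX, and its difference of 6.90 ± 0.28 (adjusted p = 9.49e-10) was the widest rise among genes. Its paralogue *Serpinb1b* read 169, 206 and 169 with IFNγ + CHX, 6.4, 6.1 and 6 with IFNα + CHX and 6.5, 6.2 and 6.2 with Mock + CHX (4.87 ± 0.11, adjusted p = 2.22e-12). In both genes IFNα + CHX stood at the level of Mock + CHX and only IFNγ above it. The sequences of the pair are similar enough that probes for one may read the other, and a second, dimmer probe set of *Serpinb1a* differed by 2.36. *Icam1*, the adhesion molecule that leukocyte integrins bind, showed the same pattern at 376, 274 and 206 with IFNγ + CHX, 5.9, 5.9 and 6.9 with IFNα + CHX and 5.6, 5.8 and 5.5 with Mock + CHX, a difference of 5.48 ± 0.24 (adjusted p = 2.03e-09). With IFNα + CHX these 3 genes read near the lower quartile, and with 16 added to every intensity their differences were 5.06 for *Serpinb1a*, 3.15 for *Serpinb1b* and 3.72 for *Icam1*. *Ppp1r3d*, a glycogen-targeting subunit of protein phosphatase 1, had 377, 553 and 294 with IFNγ + CHX, 18.5, 10.4 and 11.4 with IFNα + CHX and 8.8, 5.3 and 10.7 with Mock + CHX (4.92 ± 0.35, adjusted p = 4.93e-07). *Smoc1*, which encodes a secreted matrix protein, read 877, 675 and 534 in the IFNγ + CHX arrays, against 28.1, 28.3 and 25.6 in the IFNα + CHX arrays (4.64 ± 0.21, adjusted p = 2.37e-09). The remaining genes of the 12 widest rises that are described nowhere else were *Hoxd3*, a homeobox gene, *Ifitm5*, an IFITM gene of bone, and *Lrrtm2*, which encodes a synaptic adhesion protein. *Hoxd3* had 523, 473 and 508 in the IFNγ + CHX arrays, against 22.1, 38.4 and 53.9 in the IFNα + CHX arrays (3.81 ± 0.31, adjusted p = 1.65e-06), *Ifitm5* differed by 3.81 ± 0.43 and *Lrrtm2* by 3.78 ± 0.45.

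The promoters of the 3 genes with the widest rises that had a RefSeq entry (*Serpinb1a* was not matched) are shown for the GAS, because STAT dimers carry the IFNγ signal. The order of these rises depends on the added constant: with 16 added, *Cxcl9* (4.15) and *Tifa* (4.09) came before *Ppp1r3d* (3.81), *Icam1* and *Serpinb1b*. *Icam1* lies at chr9:21015690-21015989, plus strand, *Ppp1r3d* at chr2:178414414-178414713, minus strand and *Serpinb1b* at chr13:33083853-33084152, plus strand (GRCm38.p6), and capitals mark the GAS letters used here, TTCNNNGAA, in which N is any base.
*Icam1*: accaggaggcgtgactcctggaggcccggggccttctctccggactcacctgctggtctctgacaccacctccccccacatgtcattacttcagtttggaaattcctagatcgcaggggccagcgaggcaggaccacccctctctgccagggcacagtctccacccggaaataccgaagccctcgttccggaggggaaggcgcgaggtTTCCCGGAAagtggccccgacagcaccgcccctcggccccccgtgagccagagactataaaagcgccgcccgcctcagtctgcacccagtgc
*Ppp1r3d*: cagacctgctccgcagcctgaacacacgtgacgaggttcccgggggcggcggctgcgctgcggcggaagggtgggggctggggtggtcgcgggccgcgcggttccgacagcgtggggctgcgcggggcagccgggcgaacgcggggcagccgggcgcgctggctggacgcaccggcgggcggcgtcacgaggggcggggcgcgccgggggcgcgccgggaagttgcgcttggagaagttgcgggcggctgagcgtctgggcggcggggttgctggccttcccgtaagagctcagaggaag
*Serpinb1b*: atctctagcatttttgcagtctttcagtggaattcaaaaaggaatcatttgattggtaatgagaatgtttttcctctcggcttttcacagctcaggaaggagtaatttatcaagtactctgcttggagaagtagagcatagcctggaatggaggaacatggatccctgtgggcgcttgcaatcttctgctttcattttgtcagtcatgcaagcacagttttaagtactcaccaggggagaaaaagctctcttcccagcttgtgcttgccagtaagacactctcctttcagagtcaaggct
The window of *Icam1* held 1 match, at 42 to 34 bases before the start, and neither other window held these letters or those of the ISRE.

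Some of the rises were genes with roles in pathogen sensing or inflammation, picked here from the widest rises and from several lists. Of 12 chemokine genes outside the CXCR3 ligands 2 were called higher and none lower, and of 16 cytokine genes 1 was higher and 2 were lower. *Nod1*, an intracellular receptor for bacterial cell wall fragments, read 347, 293 and 232 with IFNγ + CHX, 22.7, 15.1 and 23 with IFNα + CHX and 12.2, 12.7 and 14.3 with Mock + CHX, a difference of 3.85 ± 0.20 (adjusted p = 1.43e-08). *Tifa*, an adaptor that leads from bacterial sugars to NF-κB, had 1321, 801 and 1061 with IFNγ + CHX, 71.5, 48 and 26.1 with IFNα + CHX and 18.9, 17.2 and 9.8 with Mock + CHX (4.54 ± 0.31, adjusted p = 3.44e-07). *Il18rap*, the accessory chain of the interleukin-18 receptor, rose to 2617, 2826 and 4167 with IFNγ + CHX, against 179.9, 239.7 and 277 with IFNα + CHX (3.78 ± 0.31, adjusted p = 1.97e-06). *Cx3cl1*, which encodes the chemokine fractalkine, had 1423, 1076 and 750.1 with IFNγ + CHX, 120, 118 and 122 with IFNα + CHX and 100.3, 104 and 80.9 with Mock + CHX, a difference of 3.13 ± 0.24 (adjusted p = 9.44e-07). IFNγ + CHX averaged 11.1-fold over Mock + CHX in this gene and IFNα + CHX 1.27-fold. Dimmer probe sets of *Cx3cl1* differed by 1.71 and 0.89 and were not called. *Ccl12*, another chemokine gene, read 16.4, 39.9 and 11.8 in the IFNγ + CHX arrays, against 5.3, 5.1 and 5.1 in the IFNα + CHX arrays (1.94 ± 0.37, adjusted p = 0.0042), and its call was lost without IFNα + CHX replicate 1, 2 or 3 (1.93 to 1.95, adjusted p 0.0149 to 0.0179) and with 16 added to every intensity (0.80, adjusted p = 0.0324). *Il1a* (interleukin-1α) read 134, 140.1 and 116 in the IFNγ + CHX arrays, against 53.4, 26.1 and 26.1 in the IFNα + CHX arrays (1.97 ± 0.33, adjusted p = 0.00153), a call that was lost without IFNα + CHX replicate 2 (1.80, adjusted p = 0.0108) or replicate 3 (1.80, adjusted p = 0.0103). *Sod2*, encoding mitochondrial superoxide dismutase, had 7279, 6468 and 4796 in the IFNγ + CHX arrays, against 2368, 1995 and 1370.3 in the IFNα + CHX arrays (1.71 ± 0.23, adjusted p = 0.000178). Genes of cell death were found on both sides, with 3 of 12 measured higher and 2 lower. *Ripk3*, which encodes a kinase of necroptosis, read 86.1, 84.3 and 47.8 in the IFNγ + CHX arrays, against 24.5, 17.7 and 15.9 in the IFNα + CHX arrays (1.88 ± 0.26, adjusted p = 0.000282). *Casp12*, a caspase gene of the inflammatory branch, read 470.2, 510 and 712 in the IFNγ + CHX arrays, against 131, 129 and 119 in the IFNα + CHX arrays and differed by 2.14 ± 0.42 (adjusted p = 0.00455), but leaving out any 1 of the 6 arrays gave differences of 1.96 to 2.26 with adjusted p of 0.0109 to 0.0236, above 0.01.

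Complement proteases were on the same side. *C1s1*, encoding a serine protease of the first complement component, had 8445, 5044 and 8105 with IFNγ + CHX, 1479, 1534 and 1456 with IFNα + CHX and 259.6, 212 and 289.7 with Mock + CHX, so that both interferons stood above Mock + CHX and IFNγ above IFNα by 2.24 ± 0.26 (adjusted p = 4.97e-05). *C1ra*, its partner protease, read 452, 378 and 448 in the IFNγ + CHX arrays, against 178, 151 and 151 in the IFNα + CHX arrays (1.41 ± 0.28, adjusted p = 0.00582), and each of the 6 arrays ended the call when left out (1.37 to 1.5, adjusted p 0.0111 to 0.0268). The other 3 measured complement genes were not called. The probe set of *C1s1* is of a kind that may read related transcripts, and so are those of *Sting1*, *Tlr3*, *Socs3* and *Ifnar2*.

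Genes of the signalling path itself and its inhibitors also rose. *Stat3*, the STAT of interleukin-6 signalling, had 7527, 6262 and 5480.1 with IFNγ + CHX, 2437, 2271 and 1963 with IFNα + CHX and 1374, 1248 and 1027 with Mock + CHX, a difference of 1.52 ± 0.14 (adjusted p = 4.18e-06). *Ifnar2*, a chain of the type I receptor, read 1063, 1757 and 1277 in the IFNγ + CHX arrays, against 489, 503 and 647 in the IFNα + CHX arrays (1.30 ± 0.19, adjusted p = 0.000345). *Stat6*, the STAT of interleukin-4 signalling, had 995, 1078 and 691 in the IFNγ + CHX arrays, against 387, 391 and 503 in the IFNα + CHX arrays (1.09 ± 0.16, adjusted p = 0.000558), just short of 2-fold without IFNγ + CHX replicate 2 (0.97). *Socs1* and *Socs3* encode inhibitors of JAK kinases. *Socs1* had 1269, 1244 and 690 with IFNγ + CHX, 214, 265 and 153 with IFNα + CHX and 46.9, 66.9 and 34.6 with Mock + CHX, the IFNα + CHX values lying between those of the other groups, and differed by 2.32 ± 0.36 (adjusted p = 0.000762). *Socs3* read 14102, 17831 and 16202 with IFNγ + CHX, 4274, 3927 and 3176 with IFNα + CHX and 3340.4, 2103 and 1494 with Mock + CHX (2.09 ± 0.27, adjusted p = 0.000166). *Cish*, another member of the family, read 1088, 1002 and 418 in the IFNγ + CHX arrays, against 149.9, 135 and 131 in the IFNα + CHX arrays (2.47 ± 0.44, adjusted p = 0.00223), and leaving out IFNγ + CHX replicate 1 (2.22), IFNγ + CHX replicate 2 (2.28), IFNα + CHX replicate 2 (2.46) or IFNα + CHX replicate 3 (2.43) took its adjusted p past 0.01 (0.0109 to 0.0135). Of 12 measured receptor, JAK and STAT genes, 3 were higher and 0 lower (median 0.05), and of 15 measured SOCS, PIAS and phosphatase genes, 3 were higher and 0 lower (median 0.14).

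Antigen presentation was divided. *Nlrc5*, the transactivator of MHC class I genes, had 755, 863 and 744 with IFNγ + CHX, 82.2, 62 and 74 with IFNα + CHX and 6.3, 6.2 and 7.8 with Mock + CHX, a difference of 3.44 ± 0.15 (adjusted p = 1.67e-09). *Tap1*, encoding a chain of the peptide transporter, read 955, 911 and 734 with IFNγ + CHX, 408, 349 and 311 with IFNα + CHX and 5.7, 5 and 5 with Mock + CHX (1.28 ± 0.22, adjusted p = 0.0014). Both were above Mock + CHX with either interferon, more so with IFNγ. *Psmb9*, an immunoproteasome subunit, read 281, 191 and 175 in the IFNγ + CHX arrays, against 106, 92.5 and 53.6 in the IFNα + CHX arrays (1.39 ± 0.24, adjusted p = 0.00211), which without IFNγ + CHX replicate 1 was 1.18 (adjusted p = 0.0118). *Tapbp*, given above, and *H2-M3*, a nonclassical class I gene, were lower with IFNγ. *H2-M3* had 26.1, 22.9 and 26 in the IFNγ + CHX arrays, against 65.1, 54.4 and 37.8 in the IFNα + CHX arrays (−1.04 ± 0.18, adjusted p = 0.00196). The call of *H2-M3* was lost without IFNα + CHX replicate 1 (−0.86), IFNα + CHX replicate 2 (−0.99) or IFNγ + CHX replicate 2 (−0.97), and also with 16 added (−0.72), quantile normalisation (−0.91) or median centring (−0.88). The 13 measured class I and peptide-loading genes thus had 2 higher and 2 lower, with a median of −0.14, and none of the 3 measured class II genes was called.

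The interferon-inducible GTPases that attack the vacuoles of intracellular parasites stood far above Mock + CHX with both interferons, apart from 2 dim guanylate-binding proteins. Of 5 measured immunity-related GTPases, 1 was higher (median 0.59), and of 6 measured guanylate-binding proteins, 1 was higher (median 0.53). *Irgm2* had 5446, 4177 and 5063 with IFNγ + CHX, 4464, 4155 and 3735 with IFNα + CHX and 10, 8.9 and 9 with Mock + CHX. The groups of the interferons overlapped and both stood far above the uninduced cells, 524-fold and 442-fold, with a difference between them of 0.24 (95% interval −0.06 to 0.55). *Igtp* read 3701, 3006 and 2793 with IFNγ + CHX, 2578, 2247 and 1936 with IFNα + CHX and 4.9, 8.1 and 10.4 with Mock + CHX, and differed by 0.49 (95% interval −0.01 to 0.99), each IFNγ + CHX array being above each IFNα + CHX array. *Irgm1*, with 8182, 5762 and 5855 in the IFNγ + CHX arrays, against 4955, 4255 and 3264 in the IFNα + CHX arrays, differed by 0.67 (95% interval 0.04 to 1.30) and likewise did not overlap. *Ifi47* had 445, 464 and 326 in the IFNγ + CHX arrays, against 403, 260.3 and 189 in the IFNα + CHX arrays, which overlapped, and a difference of 0.59 (95% interval −0.07 to 1.25). The member that was called, *Iigp1*, read 2652, 2882 and 3959 with IFNγ + CHX, 1301, 1238 and 882 with IFNα + CHX and 12.5, 12 and 12 with Mock + CHX (1.47 ± 0.17, adjusted p = 5.68e-05). Among the guanylate-binding proteins *Gbp7* was higher at 3455, 3062 and 4186 in the IFNγ + CHX arrays, against 1415, 1377 and 1212 in the IFNα + CHX arrays (1.41 ± 0.22, adjusted p = 0.000803). *Gbp6* read 3187, 2749.6 and 2786 in the IFNγ + CHX arrays, against 1551, 1405 and 1601 in the IFNα + CHX arrays and *Gbp2* had 1670, 1938 and 1255 in the IFNγ + CHX arrays, against 1212, 1121 and 892 in the IFNα + CHX arrays. Their differences were 0.94 (95% interval 0.49 to 1.39) and 0.58 (95% interval 0.05 to 1.12), both under 2-fold. With median centring *Gbp6* was called higher (1.09, adjusted p = 0.00959). *Gbp3*, at 609.9, 669 and 756 in the IFNγ + CHX arrays, against 1610, 1446 and 1332 in the IFNα + CHX arrays, differed by −1.11 (95% interval −1.81 to −0.41) and missed the threshold (adjusted p = 0.0572), and with 16 added to every intensity it was called lower (−1.09, adjusted p = 0.000491). *Gbp8* and *Gbp2b* stayed near the bottom of the scale, between 3.9 and 9.5 on all 18 arrays. Members of these families share much sequence, so their values may include signal of a paralogue.

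The chemokines that draw activated T cells through CXCR3 differed among themselves. *Cxcl10* was bright with both interferons, at 16721, 12679 and 11407 with IFNγ + CHX, 15789.8, 13847 and 9237 with IFNα + CHX and 1530.3, 584 and 324 with Mock + CHX, and its difference was 0.09 (95% interval −0.83 to 1.00). *Cxcl9* had 9420, 8459.8 and 8316 with IFNγ + CHX, 623, 539.8 and 319 with IFNα + CHX and 6.5, 6.3 and 5.8 with Mock + CHX, a difference of 4.20 ± 0.21 (adjusted p = 8.35e-09), although IFNα + CHX also stood 76.7-fold above Mock + CHX. *Cxcl11* read 641, 347 and 423 in the IFNγ + CHX arrays, against 285, 272 and 115 in the IFNα + CHX arrays, with every IFNγ + CHX value the higher but a difference of 1.13 (95% interval 0.49 to 1.77) that missed the threshold (adjusted p = 0.0329). With the replicate number added to the limma model it was called higher (adjusted p = 0.00849). *Trim21*, the cytosolic antibody receptor, and *Stat2* and *Irf9*, the specific parts of ISGF3, were also above Mock + CHX with both. *Trim21* had 682, 549.6 and 528 with IFNγ + CHX, 798, 577 and 475 with IFNα + CHX and 4.7, 4.6 and 6 with Mock + CHX, a difference of −0.05 (95% interval −0.46 to 0.36). *Irf9* read 1039, 695 and 875 in the IFNγ + CHX arrays, against 1465, 1325 and 835 in the IFNα + CHX arrays and differed by −0.45 (95% interval −1.10 to 0.19). *Stat2* spread widely between replicates, with 696, 70.7 and 562 in the IFNγ + CHX arrays, against 446, 748 and 273 in the IFNα + CHX arrays, and its difference was −0.57 (95% interval −2.10 to 0.95). *Irf1* had 21428, 15501 and 16527 with IFNγ + CHX, 11268, 11656 and 10501 with IFNα + CHX and 2465, 1501 and 1319.9 with Mock + CHX, a difference of 0.66 (95% interval 0.15 to 1.18). In all, 26 list members averaged at least 8-fold above Mock + CHX with each interferon. A difference that missed the threshold does not show equal induction, and the intervals give the sizes that remain possible.

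The promoters of *Trim21* and *Cxcl10* are printed for comparison with the earlier sets. Among the list members at least 8-fold above Mock + CHX with each interferon, these genes had the narrowest differences. *Trim21* lies at chr7:102565433-102565732, minus strand and *Cxcl10* at chr5:92348840-92349139, minus strand (GRCm38.p6), and capitals mark the ISRE letters.
*Trim21*: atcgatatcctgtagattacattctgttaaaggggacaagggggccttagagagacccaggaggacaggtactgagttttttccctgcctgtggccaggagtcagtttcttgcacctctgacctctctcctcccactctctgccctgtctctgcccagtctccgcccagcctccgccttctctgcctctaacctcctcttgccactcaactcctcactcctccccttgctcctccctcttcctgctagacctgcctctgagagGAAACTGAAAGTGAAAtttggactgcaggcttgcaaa
*Cxcl10*: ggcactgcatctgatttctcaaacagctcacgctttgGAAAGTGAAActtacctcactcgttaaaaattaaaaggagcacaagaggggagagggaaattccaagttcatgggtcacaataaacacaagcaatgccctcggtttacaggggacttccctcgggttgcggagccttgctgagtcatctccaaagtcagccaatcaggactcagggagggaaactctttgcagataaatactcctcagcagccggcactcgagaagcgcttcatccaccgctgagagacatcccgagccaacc
*Trim21* held 2 overlapping matches 13 to 28 bases after the start and *Cxcl10* 1 match at 213 to 204 bases before it, and neither held the GAS letters.

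**Figure D2:**
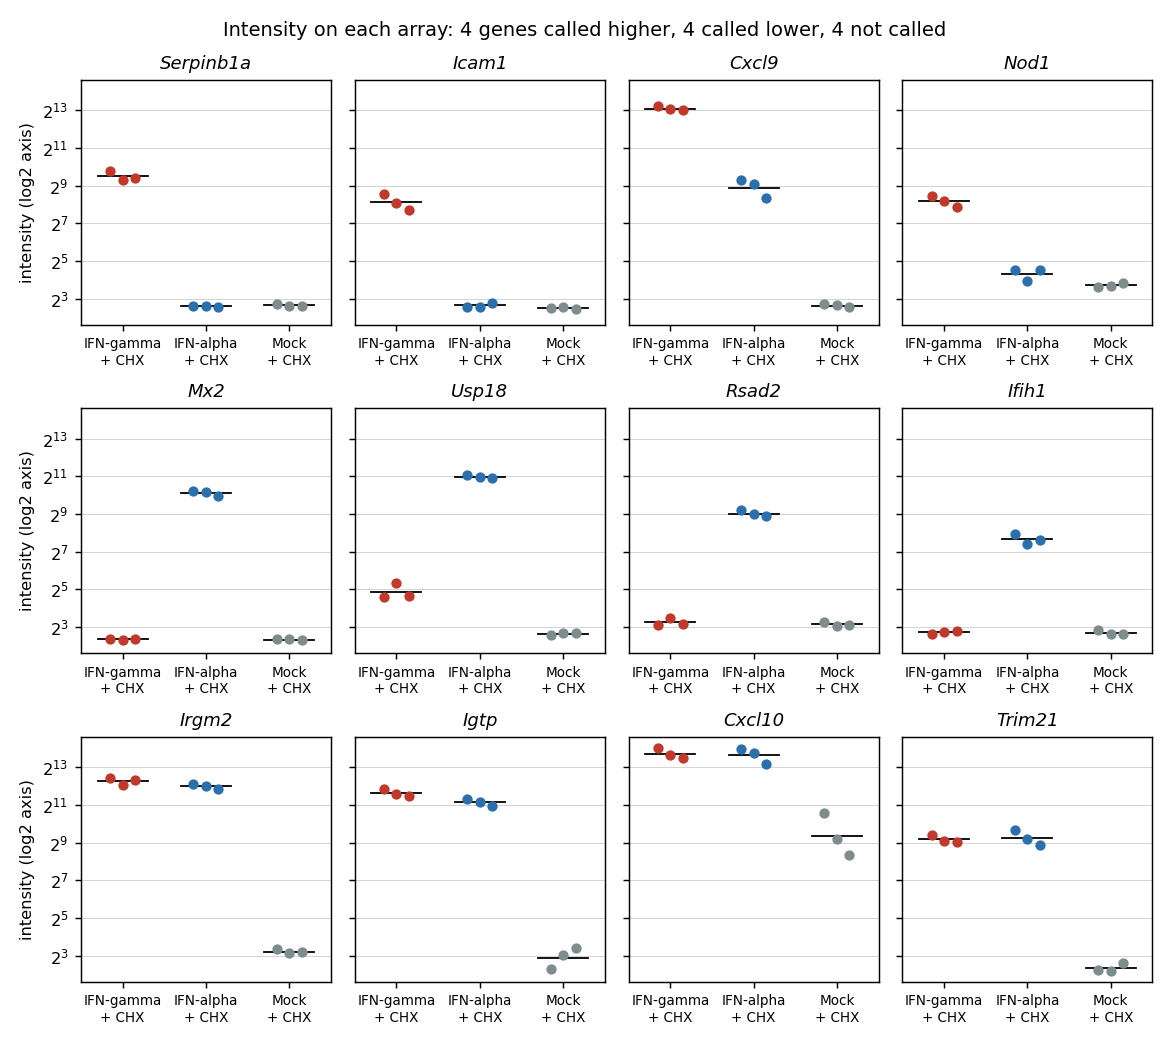
Intensity (log2 axis) of 12 genes on each of the 3 IFNγ + CHX, 3 IFNα + CHX and 3 Mock + CHX arrays, with a bar at the mean log2 value. In the top row the IFNγ + CHX points stand apart above the others, in the middle row the IFNα + CHX points do, and in the bottom row (*Irgm2*, *Igtp*, *Cxcl10* and *Trim21*) both interferons stand together above Mock + CHX.

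The second set of lower genes, those whose Mock + CHX mean lay nearer to IFNα + CHX, had a median log2 level of 7.66 with Mock + CHX. *Bnc1*, a zinc-finger transcription factor gene, had 254, 247 and 319 with IFNγ + CHX, 999, 819 and 782 with IFNα + CHX and 1349, 1094 and 974 with Mock + CHX, a difference of −1.67 ± 0.14 (adjusted p = 1.76e-06). *Rgs4*, which encodes a brake on G protein signalling, read 415, 423 and 348 with IFNγ + CHX, 1643, 1227 and 875 with IFNα + CHX and 2081, 1392 and 1190.1 with Mock + CHX (−1.62 ± 0.24, adjusted p = 0.000474). *Tmem119*, which encodes a membrane protein of bone and microglia, had 35.7, 62.7 and 32.3 with IFNγ + CHX, 190.3, 139.7 and 139.5 with IFNα + CHX and 195, 137 and 97.9 with Mock + CHX (−1.89 ± 0.31, adjusted p = 0.00123). In these 3 genes the IFNα + CHX values overlapped those of Mock + CHX. *Ccnd1* (cyclin D1) was also lower, with a difference of −1.21. *Id4*, an inhibitor of helix-loop-helix factors, read 1069, 1637 and 1270.2 with IFNγ + CHX, 3089.6, 3117 and 2369.5 with IFNα + CHX and 3237, 3686 and 3007 with Mock + CHX (−1.12 ± 0.18, adjusted p = 0.00118), just short of 2-fold without IFNγ + CHX replicate 1 (−0.98). With median centring *Id4* was short of 2-fold as well (−0.97). *Hes1*, a Notch target that encodes a repressor, had 242, 195 and 55.5 with IFNγ + CHX, 878, 846 and 515 with IFNα + CHX and 1226, 762 and 509.5 with Mock + CHX (−2.40 ± 0.47, adjusted p = 0.00461), and its call was lost without IFNα + CHX replicate 1 (−2.26, adjusted p = 0.0233) or replicate 2 (−2.29, adjusted p = 0.0240). Of 19 genes on the panel of IFNγ-repressed genes that the study assayed by other means, 10 were lower and 0 higher, with a median of −1.34. The study drew its IFNγ-repressed genes partly from the arrays used here, so the count and direction on this panel are not independent evidence.

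Cytokine and feedback genes were part of this set. *Lif* (leukaemia inhibitory factor) had 1391, 1396 and 879 with IFNγ + CHX, 3405, 2845 and 2674 with IFNα + CHX and 4173, 2976 and 2539.9 with Mock + CHX, a difference of −1.31 ± 0.22 (adjusted p = 0.00133), which with median centring was −1.15 (adjusted p = 0.0121). *Csf2* (GM-CSF) read 13.9, 10.8 and 8 with IFNγ + CHX, 60.6, 43.7 and 28.7 with IFNα + CHX and 78.8, 44.7 and 30.6 with Mock + CHX (−1.99 ± 0.33, adjusted p = 0.00115). In both genes IFNα + CHX overlapped Mock + CHX. *Dusp14*, encoding a phosphatase that acts on MAP kinases, read 158, 112 and 117 with IFNγ + CHX, 359, 503 and 252 with IFNα + CHX and 296, 393 and 279 with Mock + CHX (−1.49 ± 0.24, adjusted p = 0.00115). *Dusp1*, another such phosphatase gene, had 7653, 8709 and 5381 with IFNγ + CHX, 16917, 15232 and 12737 with IFNα + CHX and 17812, 15650 and 14288 with Mock + CHX (−1.06 ± 0.19, adjusted p = 0.0025), a call lost without IFNα + CHX replicate 1 (−0.97), IFNα + CHX replicate 2 (−1.05) or IFNγ + CHX replicate 3 (−0.86). Median centring also ended the call of *Dusp1* (−0.91, adjusted p = 0.0226). *Krtap1-5*, a keratin-associated protein gene, fell to 4.9, 5.7 and 5 with IFNγ + CHX, against 233, 105 and 40.9 with IFNα + CHX, while Mock + CHX had 194, 113 and 97.9 (−4.27 ± 0.43, adjusted p = 1.14e-05). *Smad6*, an inhibitor of BMP signalling, was higher instead, at 420.4, 722 and 332 in the IFNγ + CHX arrays, against 118, 145 and 182 in the IFNα + CHX arrays (1.67 ± 0.28, adjusted p = 0.00132). Of 10 measured Notch and BMP feedback genes 1 was higher and 2 lower, and of 14 measured MAP kinase feedback genes 1 was higher and 2 lower. The higher member of the MAP kinase list was *Spred1*, an inhibitor of the Ras path, at 1365, 1315 and 1249 in the IFNγ + CHX arrays, against 731, 694 and 503 in the IFNα + CHX arrays (1.04 ± 0.21, adjusted p = 0.00682), and leaving out any 1 of the 6 arrays ended its call (0.88 to 1.15). No other probe set of *Spred1* was called.

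In several lists few genes or none passed the thresholds. The same holds for all genes tested, of which 2.29% were higher and 1.53% lower, so these counts do not set the lists apart. None of 20 immediate-early transcription factor genes was called, with a median of −0.08 at median log2 levels of 13.01 with IFNγ + CHX and 13.23 with IFNα + CHX, and none of 22 ribosomal protein genes was, with a median of −0.20. Of 13 measured genes of the NF-κB system 1 was lower and 0 higher (median −0.19). That gene was *Traf1*, at 10.5, 68.9 and 29.7 in the IFNγ + CHX arrays, against 142, 99.8 and 169 in the IFNα + CHX arrays (−2.26 ± 0.46, adjusted p = 0.00635), and the call was lost without IFNα + CHX replicate 1 (−2.22), IFNα + CHX replicate 2 (−2.47), IFNα + CHX replicate 3 (−2.10) or IFNγ + CHX replicate 3 (−2.31). Chemokines outside the CXCR3 group that were bright in all CHX groups, such as *Ccl2*, *Ccl7* and *Cxcl1*, differed by −0.05, 0.21 and 0.06. Fibroblast markers were not called either, with differences of −0.91 (*Col1a1*) to 1.34 (*Thy1*). With the dimmest instead of the brightest probe set of each gene, 1 of these 10 markers was higher.

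**Figure D3:**
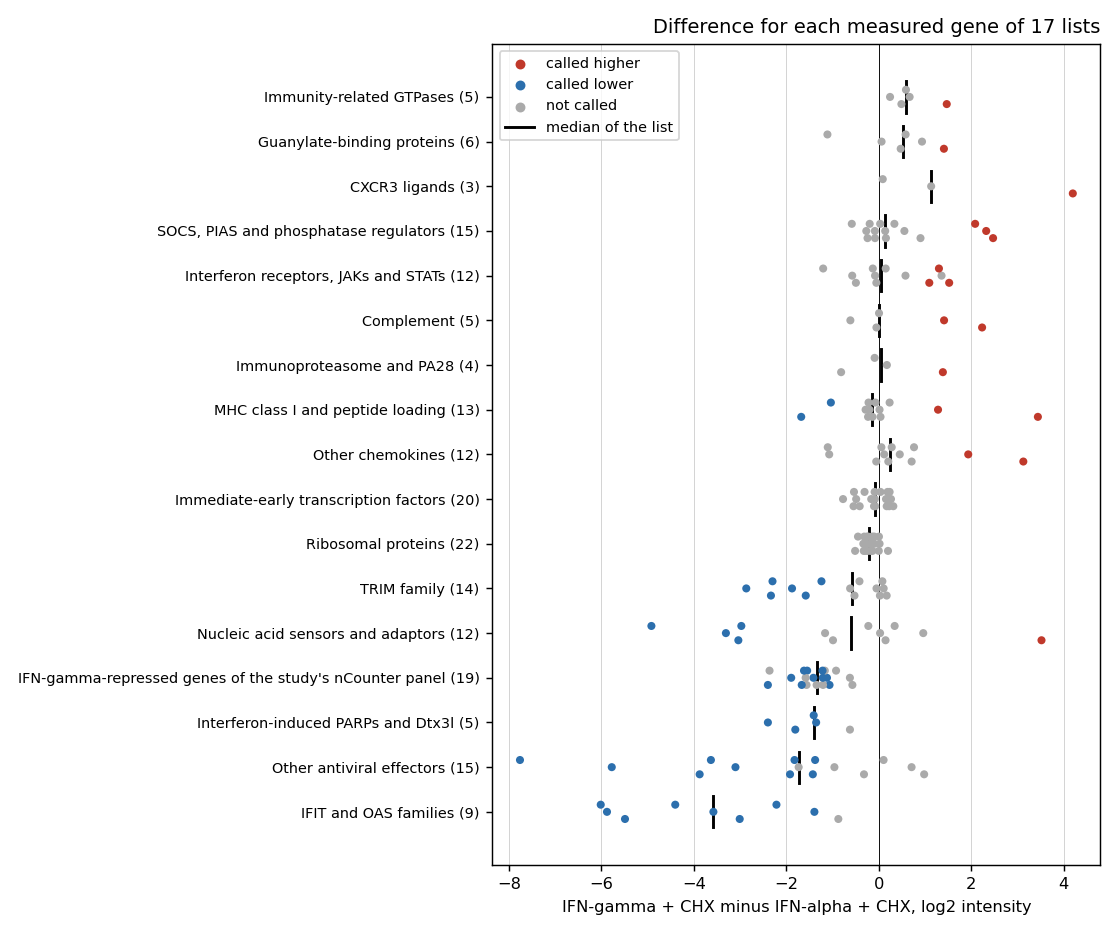
Each point is 1 measured gene of a list and its horizontal position is the log2 difference of IFNγ + CHX minus IFNα + CHX, with red points higher, blue points lower, grey points not called and a black bar at the median of the list. The IFIT and OAS families lie farthest to the left with a median of −3.58, and the immediate-early and ribosomal lists lie close to 0.

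The same contrast on the arrays without CHX gives the difference between the interferons when protein could be made. Without CHX 184 genes (1.52%) were higher with IFNγ than with IFNα and 62 (0.512%) were lower. Of the 277 genes higher under CHX, 149 were higher without it too, 53.8% of the first list and 81.0% of the second. Of the 186 lower genes, 53 were lower without it, 28.5% of the first list and 85.5% of the second. By probe sets, 305 were higher and 104 lower without CHX, and 69 lower without IFNα replicate 2. No gene was called in the opposite direction, and 272 of the higher and 178 of the lower genes had the same sign. The median difference without CHX was 1.22 for the genes higher under CHX and −0.75 for those lower. Over the 463 called genes the differences with and without CHX had a Pearson r of 0.88 and a Spearman rho of 0.86, as a description over genes that share arrays within each contrast. These genes were selected for a difference of at least 2-fold under CHX, so the coefficients do not describe all genes tested. A call in one contrast and not in the other is no test of a difference between them, which the interaction term gives.

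By that term 17 genes (0.14%) moved further towards IFNγ with CHX than without it, and 26 (0.215%) further towards IFNα. *Icam1* was of the first kind, and its 3 IFNγ arrays had 376, 274 and 206 with CHX, against 13.9, 14.4 and 6.9 without it, while IFNα gave 5.9, 5.9 and 6.9 with CHX and 5.2, 5.2 and 5.3 without it. The difference between the interferons was 5.48 with CHX and 1.09 without it, an interaction of 4.39 ± 0.34 (adjusted p = 9.09e-06). *Serpinb1a* and *Serpinb1b* shared that pattern, with interactions of 4.62 and 3.97. *Sgk2*, a serine/threonine kinase gene, was at 43, 37.2 and 38 with IFNγ + CHX and between 4.1 and 4.4 on every array of the other 5 groups, an interaction of 3.22 that was 1.45 with 16 added to every intensity.

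Among the second kind were GTPases and other genes that both interferons raised. *Gbp2* had 1670, 1938 and 1255 with IFNγ + CHX, against 4269, 5418 and 4905 with IFNγ without CHX. With IFNα it was the other way round, at 1212, 1121 and 892 with CHX, against 544, 483 and 440.1 without it. Its 2 probe sets gave interactions of −2.73 and −3.02. *Cd274*, which encodes the T cell checkpoint ligand PD-L1, differed by 2.01 without CHX, where IFNγ was the higher (319.8, 274 and 326, against 74.2, 85.9 and 68 with IFNα). With CHX it read 118, 121 and 119 in the IFNγ + CHX arrays, against 203, 231 and 208 in the IFNα + CHX arrays, a difference of −0.84 that was under 2-fold, and the interaction was −2.85 ± 0.19 (adjusted p = 2.99e-06). *Irgm2*, *Iigp1* and *Gbp6* were also among the 26, with interactions of −1.37, −2.04 and −1.88. The antiviral genes *Rsad2*, *Oasl1*, *Mx2*, *Ifih1* and *Oas1a* were in the same count since the lead of IFNα was wider with CHX. For *Rsad2* IFNα gave 598, 505 and 473 with CHX, against 77.5, 73.2 and 52.9 without it, and the interaction was −2.82.

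*Ccl11* (eotaxin) was the reverse of *Icam1*: IFNγ gave 12.5, 25.4 and 21.2 with CHX, against 156, 125 and 128 without it, and IFNα stayed between 8.8 and 11.7 throughout. *Krtap1-5* was between 4.6 and 4.9 on all arrays without CHX, Mock included, which is the bottom of the scale, and its interaction was −4.26. For 2 of the genes named here the probe sets disagreed in the sign of the interaction. The brighter probe set of *Cxcl9* had an interaction of −3.18, where IFNα gave 623, 539.8 and 319 with CHX and 10, 13.1 and 10 without it, but a dimmer one read 965, 930.1 and 880.3 with IFNγ + CHX, against 13.8, 10.4 and 11.2 with IFNα + CHX. Without CHX this probe set had 18.4, 19.9 and 8.8 with IFNγ, against 7.6, 7.5 and 7.6 with IFNα, an interaction of 5.34 (adjusted p = 7.09e-07). Both were higher with IFNγ under CHX. The probe sets of *Sp100*, a nuclear body gene, gave −2.80 (called) and 1.11 (not called), and only the first was lower with IFNγ under CHX. Dimmer probe sets of *Serpinb1a* (1.72), *Gbp6* (−1.02) and *Iigp1* (−1.97) had the sign of the brighter ones but no interaction call. Their adjusted p were 0.0236, 0.378 and 0.0148.

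**Figure D4:**
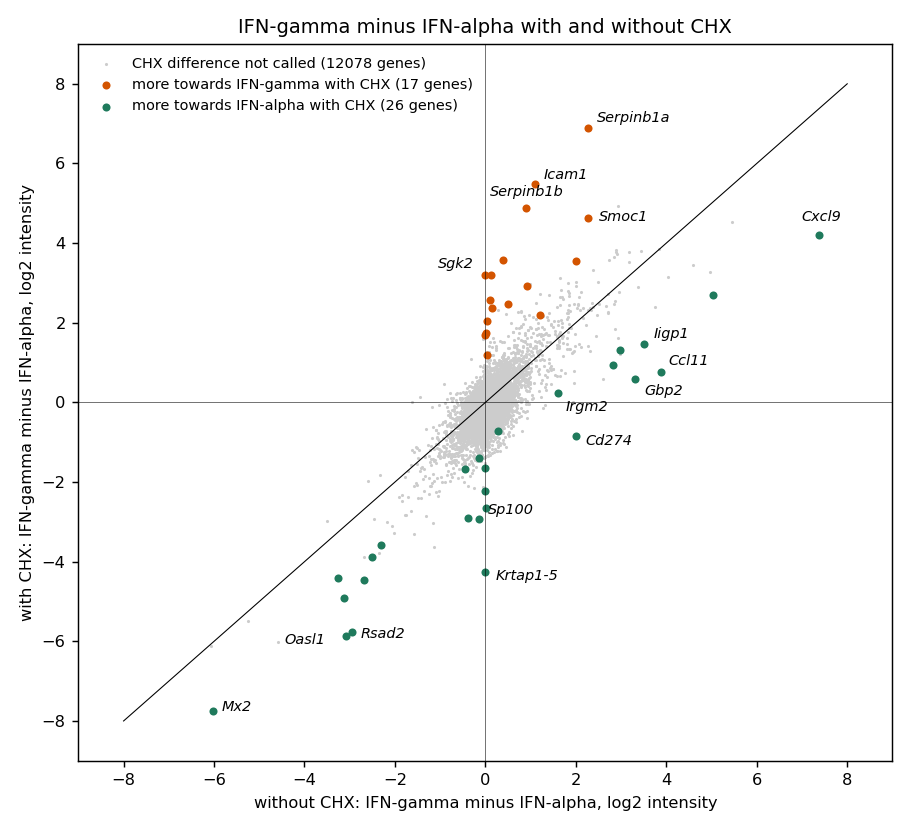
Each point is 1 of 12121 genes, with the log2 difference of IFNγ minus IFNα on the arrays with CHX on the vertical axis and on those without CHX on the horizontal axis, the diagonal marking equal differences. The 17 genes in orange lie above the diagonal, led by *Serpinb1a*, *Icam1* and *Serpinb1b*, and the 26 in green lie below it, from *Cxcl9* at the right to *Mx2* at the lower left.

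With only the 12 arrays of the 4 interferon groups in the fit the interaction was called for 11 and 21 probe sets, against 24 and 39 with all 18. Of the arrays without CHX, leaving out IFNγ replicate 3 or IFNα replicate 2 gave 15 or 14 probe sets further towards IFNγ with CHX. The interaction calls of *Krtap1-5*, *Mfsd13a* and *Hsf5* were each lost in 8 or 9 of the 12 fits that left out 1 of these arrays, with values in those fits of −4.28 to −4.22, 2.98 to 3.30 and 2.30 to 2.59. With 16 added the calls of *Krtap1-5* (−2.49, adjusted p = 0.0648) and *Hsf5* (1.35, adjusted p = 0.0167) were lost, and the interaction of the brighter probe set of *Cxcl9* was −1.94 and still called.

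The promoter windows of called genes were searched on both strands for the letters of the GAS (TTCNNNGAA) and the ISRE (GAAA, any 2 bases, GAAA), which can overlap where the closing GAA of a GAS opens an ISRE. A RefSeq window was matched for 217 of the 277 higher genes, 151 of the 186 lower genes and 9821 (81.0%) of all genes tested. GAS letters stood in 46 of the 217 higher genes (21.2%, exact 95% interval 16 to 27) and in 10 of the 151 lower genes (6.62%), against 8.18% of all genes tested. ISRE letters stood in 7 of the higher genes (3.23%) and 23 of the lower genes (15.2%), against 3.70% of all genes tested. The 2 sets of lower genes had these shares. Where Mock + CHX lay nearer to IFNγ, as for *Ifit3* and *Rsad2*, ISRE letters stood in 20 of 73 genes (27.4%, interval 17.6 to 39.1) and GAS letters in 7 (9.59%). Where Mock + CHX lay nearer to IFNα, as for *Bnc1* and *Rgs4*, each motif stood in 3 of 78 genes (3.85%). Over all 32851 windows of the reference the shares were 8.30% for the GAS and 3.44% for the ISRE.

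Among the named genes with a window, the motifs fell as follows. Among the rises, *Nod1*, *Cish*, *Socs3*, *Ifnar2*, *C1ra*, *Casp12* and *Sod2* held GAS letters beside *Icam1*, *Socs1* held ISRE letters alone, and others, among them *Ppp1r3d*, *Serpinb1b*, *Tifa*, *Cxcl9*, *Stat3*, *Tap1* and *Psmb9*, held neither motif. Among the falls, *Ifit1*, *Ifih1*, *Ifit1bl1*, *Trim30a*, *Trim30d* and *Trim12c* held ISRE letters beside *Ifit3* and *Rsad2*, *Ifit2*, *H2-M3* and *Dusp14* held GAS letters, and others, among them *Oasl1*, *Oasl2*, *Irf7*, *Tlr3*, *Parp12* and *Xaf1*, held neither. *Oas1a* held both, as did *Gbp7*, *Irgm2* and *Igtp*, which stood far above Mock + CHX with each interferon. A match is a run of letters and not a site shown to be bound, and no match says only that the letters are not in this window.

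**Figure D5:**
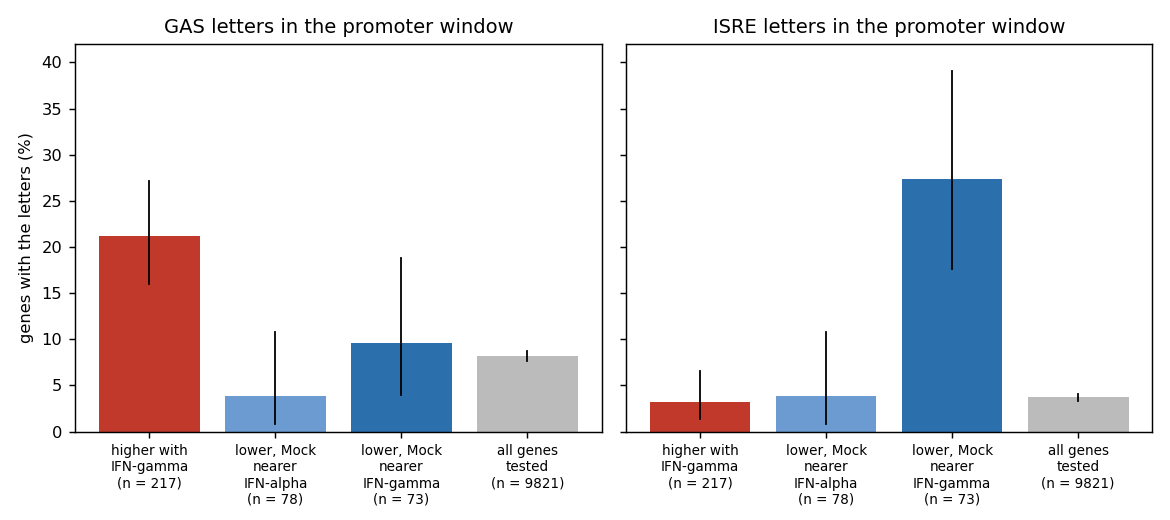
Share of genes (%) whose promoter window holds the GAS letters (left) or the ISRE letters (right), for genes higher with IFNγ under CHX, for the 2 sets of lower genes and for all genes tested, with exact 95% binomial intervals as lines. The GAS share is highest in the higher genes (21.2%) and the ISRE share in the lower genes whose Mock + CHX mean lay nearer to IFNγ (27.4%).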

How the data were processed

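Newly transcribed RNA of NIH-3T3 cells was measured on 18 Affymetrix mouse arrays, 3 biological replicates in each of 6 treatments. The authors corrected, normalised and summarised the scans with gc-RMA per the methods, and the submitters' processing notes name Affymetrix Expression Console (version not given). The deposited values are linear intensities per probe set with no detection calls, and their log2 was used here. Normalisation between arrays assumes that total newly made RNA is alike, so a shift common to all genes would not be seen. Precision is limited by the number of arrays.

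Of 45101 probe sets, 64 controls were left out. The study filtered on detection calls, which the values used here do not carry. In its place the rest were ordered by the maximum over the 18 arrays and 27773 were kept, a number close to that of the study's filter, the lowest such maximum being 8.5. A model with a mean for each treatment was fitted to all 18 arrays with limma 3.58.1 (R 4.3.3, lmFit and eBayes, 12 residual degrees of freedom). Contrasts were IFNγ + CHX against IFNα + CHX, the same without CHX, and the difference of these. p-values were two-sided and adjusted by Benjamini-Hochberg over all probe sets kept, and a call needed an adjusted p under 0.01 and at least 2-fold. Each gene was represented by the probe set with the highest mean over the 18 arrays among those with 1 symbol (34945 had 1 symbol, 932 several and 9160 none in the platform annotation). Promoter windows came from RefSeq (GRCm38.p6), searched in Python 3.11.15 with pandas 2.3.3, and exact intervals are from SciPy 1.17.1.

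Genes named were the 12 largest rises and 12 largest falls, up to 4 called members of each list (all members of lists with at most 9 measured), up to 8 interaction calls in each direction and up to 8 list members raised at least 8-fold by both interferons with the smallest difference. A few further list members were named after their values were seen. The members of the comparison follow from the labels, and the gene lists were chosen with earlier results of these data known. Some genes are not reported here. Alternatives covered the added constant, the intensity filter, the scaling, the arrays in the fit, a replicate block, the prior of eBayes, each array left out, the probe set per gene and the motifs.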

Additional observations from a re-analysis of the deposited data

Results flagged for a closer look

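Each gene here was picked out because its difference between the interferons was not the same with and without CHX by a limma test of that interaction. Values are log2: the interaction is the difference IFNγ minus IFNα with CHX, less the same difference without CHX.

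Toward IFNγ with CHX, the interaction was 4.62 for *Serpinb1a* (adjusted p = 2.62e-05), 4.39 for *Icam1*, 3.97 for *Serpinb1b*, 3.22 for *Sgk2*, 3.19 for *Mfsd13a*, 3.06 for *Arrdc2*, 2.47 for *Hsf5* and 2.38 for *Smoc1*. *Arrdc2*, an arrestin-domain gene, had 683, 329.7 and 321 in the IFNγ + CHX arrays, against 56.6, 38.2 and 44.2 in the IFNα + CHX arrays, and 24.8, 21.9 and 15.8 with IFNγ without CHX, against 21, 19.8 and 16 with IFNα without CHX. *Mfsd13a* read 233, 275 and 103 in the IFNγ + CHX arrays, against 15.5, 14.5 and 16.9 in the IFNα + CHX arrays, and 31.4, 16.4 and 20.7 with IFNγ without CHX, against 22.3, 14.4 and 14.6 with IFNα without CHX. *Hsf5*, of the heat shock factor family, had 73.9, 33.6 and 37.7 in the IFNγ + CHX arrays, against 11.9, 6 and 6.1 in the IFNα + CHX arrays, and stayed between 6.1 and 7.8 on all 6 interferon arrays without CHX.

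Toward IFNα with CHX, it was −4.26 for *Krtap1-5*, −3.18 for *Cxcl9*, −3.13 for *Ccl11*, −2.85 for *Cd274*, −2.82 for *Rsad2*, −2.80 for *Sp100*, −2.79 for *Oasl1* and −2.73 for *Gbp2*. The 3 probe sets of *Rsad2* gave −2.82, −3.91 and −1.56. *Sp100* read 11.8, 11.5 and 12.4 in the IFNγ + CHX arrays, against 109.9, 58.2 and 119 in the IFNα + CHX arrays, and lay between 11.1 and 12.7 with both interferons without CHX except for an IFNγ array at 10.5.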

How the results depend on the processing

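Over all alternatives no called difference between the interferons under CHX turned its sign in the genes named by the stated rule. Of 81 such called genes, 67 were called with each of the 6 arrays left out in turn. Leaving out 1 array gave 395 to 501 probe sets higher and 260 to 366 lower under CHX, 242 to 289 and 69 to 95 without CHX, and 14 to 35 and 26 to 44 for the interaction. The choice of arrays in the fit moved the counts most. With the 9 CHX arrays alone 265 were higher and 159 lower, and with the 6 of the comparison 104 and 64. Without CHX the 6 arrays alone gave 176 and 45, and for the interaction 12 arrays gave 11 and 21. Of the 81 named genes called, 43 were lost with the 6 arrays alone and 26 with the 9 CHX arrays alone. The 6 arrays of the comparison alone kept 21.6% of the probe sets called higher and 19.3% of those called lower. The 6 interferon arrays without CHX kept 55.7% and 42.3% for their own contrast, with as many residual degrees of freedom. The reason for this gap was not tested. Quantile normalisation gave 509 and 271, and median centring 596 and 240 with an interaction of 20 and 25. A stricter filter gave 443 and 309, with an interaction of 14 and 25. Among genes that were not called, *Trim21* changed sign with median centring (0.11) and with 1 array left out (−0.22 to 0.15), *Cxcl10* did so with 1 array left out (−0.14 to 0.25) and *Stat2* likewise (−1.18 to 0.47). Looser motifs (a GAS spacer of 2 to 4 bases, an ISRE with 1 mismatch) stood in 20.7% (GAS) and 32.2% (ISRE) of all genes tested. In the higher genes the GAS and ISRE counts were 70 (32.3%) and 66 (30.4%), and in the lower genes 29 (19.2%) and 67 (44.4%). Where Mock + CHX lay nearer to IFNγ they were 16 (21.9%) and 47 (64.4%). Where it lay nearer to IFNα they were 13 (16.7%) and 20 (25.6%).

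The labels do not say that a replicate number marks a shared culture or day, and the replicate block was left out of the model. Deviations of same-numbered IFNγ + CHX and IFNα + CHX arrays correlated at 0.625, −0.352 and 0.072, while 14 of the 18 arrays correlated best with an array of their own number, a hint of pairing from the data that the labels do not give. A model with the replicate block called 579 higher and 482 lower under CHX, 366 and 145 without CHX, and 36 and 50 for the interaction, and of the genes named by the rule it changed the call of *Cxcl11* alone (1.13, adjusted p = 0.00849, called). With the dimmest probe set of each gene, 25 list members were higher and 43 lower, against 25 and 51.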
